A study of Mus musculus with 2 samples.

Results

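The exon junction complex is the protein assembly that the spliceosome leaves on an mRNA just upstream of junctions between joined exons. Its core is a clamp made of the RNA helicase encoded by *Eif4a3* and the dimer of the *Magoh* or *Magohb* product with the *Rbm8a* product (also called Y14), joined by the product of *Casc3* (also called MLN51). The peripheral ASAP and PSAP complexes share the products of *Rnps1* and *Sap18* and differ in the scaffold, which is the *Acin1* product in ASAP and the *Pnn* product in PSAP. The complex marks spliced mRNA for export, translation and nonsense-mediated decay, and its auxiliary proteins also act in splice site choice. In other systems its core is loaded during splicing, after the Prp19 complex, to which BCAS2 belongs, has joined the spliceosome.

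These 9 genes, taken by symbol from 39695 gene entries, were examined in RNA-seq data of P9 mouse testes. The data held 2 libraries, 1 for each genotype. Control testes came from 9-day-old males with a floxed and a deleted *Bcas2* allele (*Bcas2 F/-*) and no Cre. *Bcas2 F/-;Vasa-Cre* testes, called mutant testes, came from males of the same age with the same alleles and the *Vasa-Cre* transgene, whose recombinase is active in germ cells and not in the somatic cells of the testis. Whole testes were used, so germ cells and somatic cells are mixed in both libraries. C57BL/6 is the strain in the labels, and the study's methods describe a mixed background. How many mice contributed to a library is not given in the sources used here. A single library stands for each genotype, so differences could not be checked in replicates and p-values are left out.

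The deposited values are RPKM, the reads counted on a gene scaled to gene length and to the counted reads of the library. Whole reads were recovered from them for all 9 genes, at depths of 19918750 counted reads in control and 19331687 in mutant testes. Changes are given as the log2 ratio of RPKM + 1, mutant testes over control. Intervals are 95% Clopper-Pearson intervals of the log2 RPKM ratio without the added 1, and they cover counting error only. *Bcas2* itself had 39.5 RPKM in control and 25.7 in mutant testes, a log2 ratio of -0.60 with an interval from -0.75 to -0.50. Markers of germ cells differed between the libraries. All 5 germ cell markers were lower (summed RPKM of 404 in control and 304 in mutant testes), as were all 4 meiotic prophase markers (84.1 and 54.2), whereas all 4 Sertoli cell markers were higher (438 and 495). By real-time RT-PCR at P9, the paper reports similar levels of *Ddx4* (as *Mvh*), *Kit*, *Dazl* and *Stra8* in control and mutant testes. In the same assay it reports significantly lower levels of the 4 meiotic prophase markers. For proteins, the paper reports much less total DAZL in mutant testes already at P9, less MVH at later ages, and less STRA8. It also reports no significant difference in the number of cells positive for PLZF, the *Zbtb16* product, at a later age. Markers of other somatic cells went in different directions. Of 4 Leydig cell markers, *Cyp17a1* (log2 ratio 0.68, past 1.5-fold) and *Star* (0.51) were higher and *Hsd3b1* (-0.17) and *Cyp11a1* (-0.07) lower. Both macrophage markers (summed RPKM of 10.1 and 8.43) and both endothelial markers (28.0 and 26.3) were lower, and 1 of 2 peritubular myoid markers was (379.8 and 351). No marker in these lists was at 0. Fewer cells of a type and less RNA per cell cannot be told apart in whole testes, and the part of these shifts in the values of single genes was not tested.

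All 9 genes were expressed in both libraries. Their levels ran from 32.4 to 218 RPKM in control and from 37.1 to 204 in mutant testes. None was past 1.5-fold in either direction. Past it were 3.26% of the 14831 genes averaging at least 1 RPKM and 0.565% of the 4427 averaging at least 30, as all 9 genes do. With shares this small, a count of none among 9 genes is unremarkable. Log2 ratios of the 9 genes ran from -0.23 for *Rbm8a* to 0.19 for *Magohb*, with 6 genes lower and 3 higher in mutant testes. Over all genes averaging at least 1, 46.3% were lower. The median of the 9 genes was -0.10 against 0.015 for all 14831 genes and -0.0009 for the 4427 averaging at least 30 RPKM. Added together, their reads were 25843 in control and 24753 in mutant testes. Relative to library size their log2 ratio was -0.02 (interval -0.04 to 0.01). The interval includes 0, but like those of the other sums below it covers counting error of the summed reads only. It does not measure the spread among the genes, and genes that went in opposite directions offset each other in the sum. These sums weight long genes more, and in summed RPKM the 9 genes had 1003 in control and 968 in mutant testes, a log2 ratio of -0.05.

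**Figure D1:**
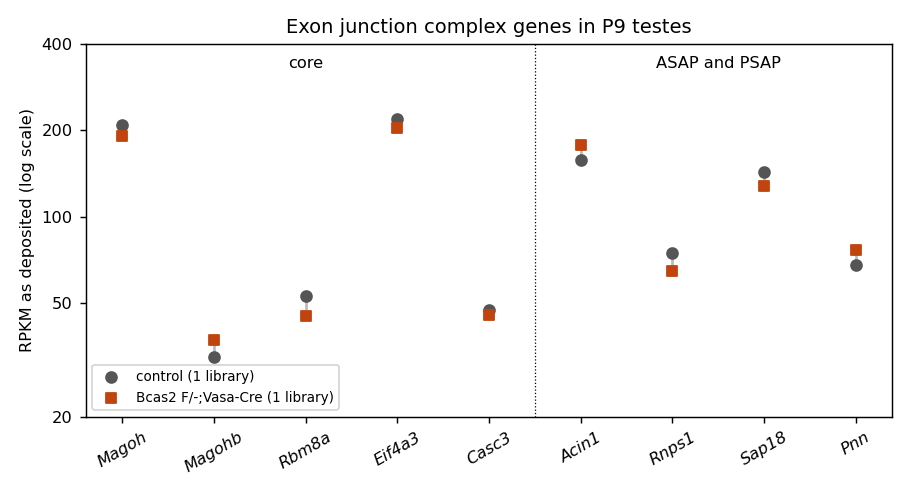
RPKM of the 9 exon junction complex genes (log scale) in the control library (grey circles) and the mutant testes library (orange squares), 1 library each, with core genes left of the dotted line and ASAP and PSAP genes right of it. *Magohb*, *Acin1* and *Pnn* lie higher in mutant testes and the other 6 genes lower, and *Eif4a3* and *Magoh* have the highest values.

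Among the core genes, 4 were lower and 1 was higher in mutant testes. *Magoh* encodes the RBM8A partner within the clamp and maps to chr4:107879755-107887424 (plus strand, GRCm38, as for all genes here). It had 208 RPKM in control and 190 in mutant testes, from 2435 and 2164 reads. The log2 ratio was -0.13, with an interval from -0.21 to -0.04. *Magohb*, the paralog of *Magoh*, maps to chr6:131284388-131293244 (minus strand). It went the other way, with 32.4 RPKM in control and 37.1 in mutant testes, from 376 and 417 reads. Its log2 ratio of 0.19 had an interval from -0.01 to 0.40, so this difference was within counting error.

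*Magoh* was the more abundant of the paralogs in both libraries, by 6.41-fold in control and 5.14-fold in mutant testes in RPKM. *Magohb* made up 13.5% of their summed RPKM in control (interval 12.2% to 14.8%) and 16.3% in mutant testes (interval 14.9% to 17.8%). The upper bound in control and the lower bound in mutant testes all but met, without overlapping. The reads of both genes added together were 2811 in control and 2581 in mutant testes, a log2 ratio of -0.08 with an interval from -0.16 to -0.002.

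The coding sequences of *Magoh* and *Magohb* were identical at 356 of 438 aligned bases (81.3%), and the longest identical stretch was 17 bases. The 150-base stretches in which they are most alike are shown because they are where reads could most easily be assigned to the wrong paralog. The capitals mark the 23 bases that differ. The *Magoh* stretch covers coding bases 179 to 328 within chr4:107883099-107884986 (plus strand) and the *Magohb* stretch coding bases 185 to 334 within chr6:131285656-131288115 (minus strand), each spliced from 2 exons of the GENCODE M21 principal transcript on GRCm38.
Magoh: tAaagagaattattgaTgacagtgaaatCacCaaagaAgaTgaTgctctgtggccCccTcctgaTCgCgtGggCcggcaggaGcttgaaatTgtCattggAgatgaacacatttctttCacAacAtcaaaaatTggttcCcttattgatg
Magohb: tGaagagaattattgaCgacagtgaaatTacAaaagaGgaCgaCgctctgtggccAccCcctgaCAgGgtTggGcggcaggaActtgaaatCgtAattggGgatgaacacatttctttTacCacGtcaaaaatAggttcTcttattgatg
Differences are spread along the whole stretch, and a search with the principal transcripts found no further annotated copy of either gene at 90% identity or more over at least 50% of the copy's length. The processed pseudogene *Gm44958* lies within *Magohb* and shares 520 of its exonic bases.

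The 250 bases upstream of the start of each paralog are shown because the genes encode interchangeable partners of RBM8A at RPKM levels several-fold apart. They are RefSeq sequences of GRCm38.p6, and windows of this kind were found for 6 of the 9 genes. The CCAAT box (letters CCAAT), the TATA box (letters TATAAA) and the Sp1 motif (letters GGGCGG) were searched on both strands of the 300-base windows, which also take in the bases just after the start. Capitals mark a match. The *Magoh* sequence is chr4:107879505-107879754 (plus strand) and the *Magohb* sequence chr6:131293245-131293494 (minus strand).
Magoh: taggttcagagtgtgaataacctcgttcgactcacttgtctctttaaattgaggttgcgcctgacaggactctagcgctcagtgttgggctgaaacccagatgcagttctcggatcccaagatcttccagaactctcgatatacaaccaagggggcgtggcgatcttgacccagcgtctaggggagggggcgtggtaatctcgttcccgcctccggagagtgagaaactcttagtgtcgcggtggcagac
Magohb: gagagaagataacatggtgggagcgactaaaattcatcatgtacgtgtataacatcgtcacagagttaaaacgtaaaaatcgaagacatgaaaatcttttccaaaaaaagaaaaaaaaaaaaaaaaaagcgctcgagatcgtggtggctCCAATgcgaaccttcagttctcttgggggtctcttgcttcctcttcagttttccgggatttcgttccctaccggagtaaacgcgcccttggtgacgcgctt
The *Magohb* window held 1 CCAAT and the *Magoh* window none, against 37.4% of all 32851 windows with at least 1. Neither held TATAAA, which 13.6% of all windows did, or GGGCGG, which 35.7% did. CpG dinucleotides numbered 22 in the *Magoh* and 25 in the *Magohb* window, with a median of 7 over all windows.

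*Rbm8a*, whose product forms the dimer with MAGOH, maps to chr3:96629933-96633791 (plus strand). It had 53.0 RPKM in control and 45.0 in mutant testes, from 2747 and 2266 reads. The log2 ratio of -0.23 was the lowest of the 9 genes, with an interval from -0.32 to -0.15. This difference is beyond counting error and inside the spread of other genes, since 11.7% of the 4427 genes averaging at least 30 RPKM were at least as far from 0 in either direction. *Rbm8a2*, a protein-coding copy of *Rbm8a* on chromosome 1, had only 5 reads in control and 3 in mutant testes. Its coding sequence differed from that of *Rbm8a* at 12 of 522 bases. With the reads of the copies added, the log2 ratio of *Rbm8a* reads stayed at -0.23.

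*Eif4a3* encodes the DEAD-box helicase that grips the RNA and maps to chr11:119288363-119300089 (minus strand). Its RPKM was the highest of the 9 genes, at 218 in control and 204 in mutant testes, from 3159 and 2857 reads. The log2 ratio was -0.10, with an interval from -0.18 to -0.03. *Casc3*, whose product stabilises the clamp, maps to chr11:98804905-98833814 (plus strand). It had 47.3 RPKM in control and 45.5 in mutant testes, from 2045 and 1907 reads. Its log2 ratio of -0.06 was the one nearest to 0 among the 9 genes, and the interval from -0.15 to 0.03 includes 0. The reads of the 5 core genes together had a log2 ratio of -0.12, with an interval from -0.16 to -0.08.

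Among the ASAP and PSAP genes, the scaffolds were higher and the shared subunits lower in mutant testes. *Acin1*, which encodes the ASAP scaffold acinus, maps to chr14:54642161-54686931 (minus strand). It had 158 RPKM in control and 178 in mutant testes, from 4777 and 5220 reads. Its log2 ratio was 0.17 (interval 0.11 to 0.23). *Pnn*, which encodes the PSAP scaffold pinin, maps to chr12:59066884-59073998 (plus strand). It had 68.0 RPKM in control and 76.6 in mutant testes, from 4697 and 5140 reads, also with a log2 ratio of 0.17 and an interval from 0.12 to 0.23. The changes of the scaffolds were alike, at 12.6% more RPKM for *Acin1* and 12.8% more for *Pnn*, and *Acin1* made up 69.9% of their summed RPKM in both libraries. That share was 42.8% in both over principal transcript lengths and 50.4% in both by reads alone, choices made after seeing the data.

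*Rnps1*, whose product is the RNA-binding subunit of both complexes, maps to chr17:24414565-24425901 (plus strand). It had 74.8 RPKM in control and 64.7 in mutant testes, from 2650 and 2223 reads. The log2 ratio was -0.21, with an interval from -0.29 to -0.13. *Sap18*, whose product is the small shared subunit, maps to chr14:57798180-57806638 (plus strand). It had 143 RPKM in control and 128 in mutant testes, from 2957 and 2559 reads. Its log2 ratio was -0.16 (interval -0.24 to -0.09). The intervals of the scaffolds and of the shared subunits do not overlap. *Acin1* had 2.11 times the RPKM of *Rnps1* in control and 2.75 times in mutant testes, and for *Pnn* the ratio to *Rnps1* went from 0.908 to 1.19. The level of *Acin1* depends on the length used, and over principal transcript lengths *Acin1* was below *Rnps1* in both libraries, at 50.6 against 69.3 RPKM in control and 57.0 against 59.9 in mutant testes. The ratio of *Acin1* to *Sap18* went from 1.10 to 1.39. The reads of these 4 genes together had a log2 ratio of 0.05, with an interval from 0.02 to 0.08. This sum weights the scaffolds most, which had the most reads. In summed RPKM the log2 ratio of the 4 genes was 0.009, and their median was 0.003, with 2 lower and 2 higher.

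**Figure D2:**
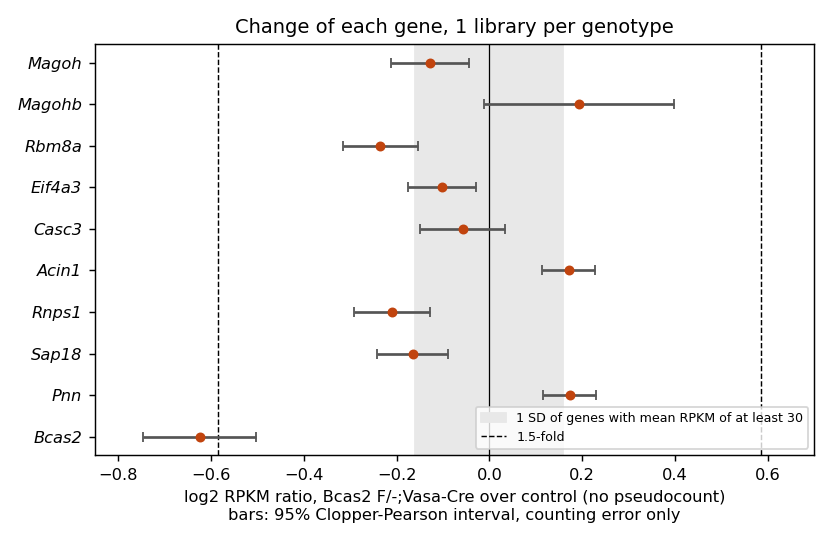
Log2 RPKM ratio without pseudocount, mutant testes over control, for the 9 exon junction complex genes and *Bcas2*, 1 library per genotype. Bars are 95% Clopper-Pearson intervals of counting error, the grey band is 1 SD (0.159) of the log2 ratios (RPKM + 1) of genes averaging at least 30 RPKM, and dashed lines mark 1.5-fold. The 9 genes lie between the dashed lines, with *Acin1* and *Pnn* right of 0 and *Rnps1* and *Sap18* left of it.

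Genes averaging at least 30 RPKM, a class to which the 9 genes belong, had log2 ratios with an SD of 0.159, and 0.565% of them were past 1.5-fold. Among them, 23.9% were at least as far from 0 as *Acin1*, 23.7% as *Pnn*, 15.4% as *Rnps1*, 25.5% as *Sap18* and 19.4% as *Magohb*. At least as far from 0 as *Magoh* were 37.7%, as *Eif4a3* 47.9% and as *Casc3* 69.8%. For *Bcas2* the share was 0.474%. Differences of the size seen in the 9 genes were thus common between these libraries, even where they were larger than counting error.

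*Sap18* has an intronless protein-coding copy, *Sap18b*, on chromosome 8, whose coding sequence was identical over all 516 bases. *Sap18b* was listed with 37 reads in control and 27 in mutant testes, and the processed pseudogene *Gm12219* with 13 and 10. How reads matching several genes were counted is not given in the sources used here, so the split between *Sap18* and *Sap18b* is uncertain. By the same identity limit, 65 small RNA genes also matched the *Sap18* transcript, none of them within its coding sequence. These matches were short, at 67 to 177 bases of a principal transcript of 5125 bases, so they are not copies of the whole gene. Of these, 9 had a mean RPKM of at least 1, with 4 to 86 reads over both libraries, namely *Gm22355*, *Gm22655*, *Gm23413*, *Gm25072*, *Gm25190*, *Gm25197*, *Gm25640*, *Gm26268* and *Gm28017*. All matching genes together had 178 reads in control and 160 in mutant testes, of which those other than small RNA genes had 50 and 37. With all these reads added, the log2 ratio of *Sap18* remained at -0.16.

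The order of the levels depended on the length by which reads were divided. The lengths behind the deposited RPKM, recovered with the reads, were near the mean length of all annotated transcripts for several genes, such as 726 bases for *Eif4a3* and 2169 bases for *Casc3*, short of their principal transcripts of 1509 and 3963 bases. Part of this nearness is built in, because the recovery took, among whole multiples, the length nearest that mean. It did not hold for *Pnn*, divided by 3469 bases, *Rbm8a*, by 2604, and *Rnps1*, by 1778, which are nearer to their principal transcripts of 3485, 2604 and 1920 bases. *Acin1*, with 26 annotated transcripts, was divided by 1520 bases, whereas its principal transcript has 4735. Over the principal transcript length, a choice made after seeing the data, the RPKM of *Acin1* in control was 50.6 and that of *Pnn* 67.7, so their order turned. *Sap18* had 29.0 RPKM over its principal transcript of 5125 bases in place of 143 over 1037. *Magoh*, at 177 RPKM, was then the highest and *Eif4a3*, at 105, the next, while *Magohb*, at 24.6, and *Casc3*, at 25.9, were the lowest. *Rbm8a* had the same length in both, and *Rnps1* was at 69.3. Ratios between the libraries are not touched by the length.

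**Figure D3:**
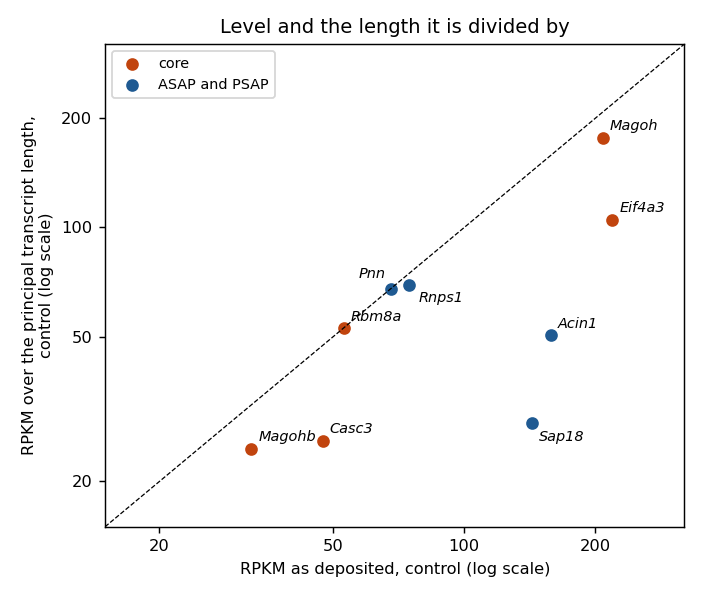
Control RPKM of the 9 genes as deposited (horizontal, log scale) against RPKM computed from the recovered reads and the principal transcript length in GENCODE M21 (vertical, log scale), with equality on the dashed line. *Acin1* and *Sap18* lie far below the line, and *Rbm8a* and *Pnn* lie on it or close to it.

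The genes also differ in their annotated transcripts, which the deposited values add up. The principal transcripts hold from 3 exon junctions in *Sap18* to 18 in *Acin1*. *Acin1* has 9 annotated transcripts with a retained intron, *Rnps1* 6, and *Magohb*, *Rbm8a* and *Pnn* 2 each, while *Sap18* has 1. *Magohb* has 3 annotated targets of nonsense-mediated decay among its 7 transcripts, and *Pnn* 1 of 4. *Magoh*, *Eif4a3* and *Casc3* have no transcript of either kind. Which of these transcripts gave the reads cannot be read from gene-level values.

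Related factors were described in the same way, from lists of other genes of the pathway. Among 4 genes for loading and recycling of the core, 3 were lower in mutant testes, with a median log2 ratio of -0.12. Over all genes tested, 46.3% were lower. *Cwc27*, a spliceosome protein that binds the loading factor, had 28.1 RPKM in control and 24.9 in mutant testes (log2 ratio -0.17). *Cwc22*, which brings EIF4A3 to the spliceosome, had 30.7 and 33.2 (log2 ratio 0.11). Of 10 nonsense-mediated decay factors, 9 were higher, with a median of 0.08, against 53.7% of all genes tested. *Upf3b*, which connects the exon junction complex to the decay machinery, was the highest, at 33.5 RPKM in control and 39.6 in mutant testes (log2 ratio 0.24), and *Smg8*, a regulator of the SMG1 kinase, the lowest, at 24.4 and 24.2 (log2 ratio -0.01).

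Of 10 genes listed for the Prp19 complex and proteins related to it, 8 were lower, against 46.3% of all genes tested. Their median log2 ratio was -0.09. The 8 include *Bcas2*, the targeted gene. *Bcas2* was the lowest and the only gene past 1.5-fold in the lists of related factors. *Cdc5l*, which encodes a core subunit of that complex, was the highest, with 53.0 RPKM in control and 53.2 in mutant testes, a log2 ratio of 0.006. None of these medians was tested, and shares of lower or higher genes in lists this short are given as a description only.

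**Figure D4:**
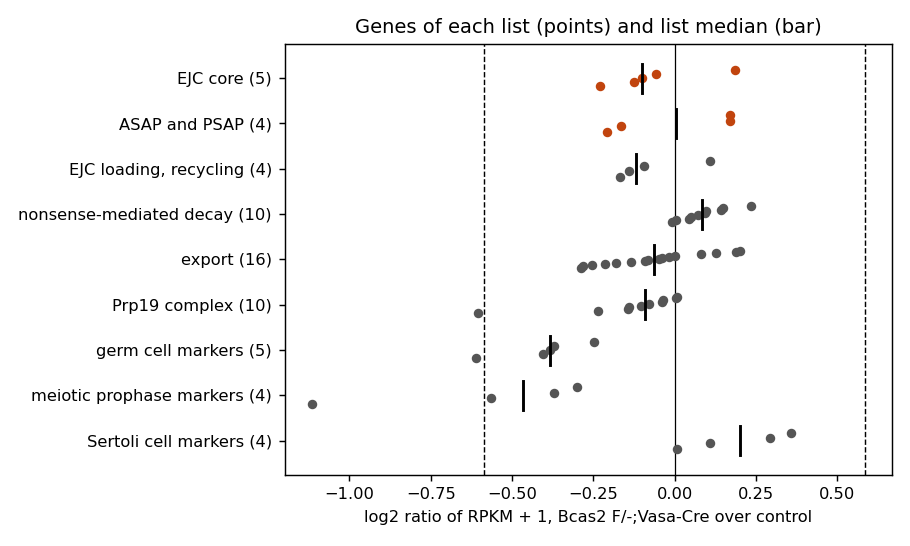
Log2 ratios of RPKM + 1, mutant testes over control, for the genes of each list (points, number of genes in brackets), with the list median as a black bar and 1.5-fold as dashed lines. The exon junction complex genes (orange) lie on both sides of 0, all nonsense-mediated decay factors except *Smg8* lie above 0, and the germ cell and meiotic prophase markers all lie below 0.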

How the data were processed

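Adaptors and reads of low quality were discarded by the authors, and paired-end alignment used TopHat2 (2.0.9) with the mm10 build, according to the submitters' processing notes. HTSeq gave the reads on each gene, which the authors deposited as RPKM, 1 column for each of 2 libraries. The annotation and gene lengths are not given in the sources used here. Of 39695 entries, 37692 (95.0%) matched GENCODE M21 (GRCm38) by identifier, and 517 had no Ensembl identifier.

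Log2 ratios of RPKM + 1 were taken over the 14831 entries averaging at least 1 RPKM, the members included. Within a library each read adds a fixed step to a gene's RPKM, so the whole reads were recovered as the smallest pair whose ratio, relative to the library ratio of 1.03, fitted the values (relative tolerance 2e-09) with a whole gene length. Of their whole multiples, the one with a length nearest the mean GENCODE M21 transcript was taken. A library size was voted by 818 of 1914 genes with a single transcript. Reads were recovered for 98.1% of 21210 annotated genes above 0 in both libraries. Where the authors used another gene length, the multiple may be a wrong one. The recovery was tested on simulated data in which gene lengths lay close to the mean transcript length. That simulation did not cover genes further off, such as *Pnn*, with 3469 bases recovered against a mean of 1861.

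All 9 genes, *Bcas2*, their copies (90% identity over 50% of the copy) with a mean RPKM of at least 1, and the lowest and highest gene of each related list were named. The members and lists were chosen with earlier results of these data known. *Zc3h11a*, 1 of the 17 export factors listed, had no matching entry. Python 3.11.15, numpy 2.4.6, scipy 1.17.1, pandas 2.3.3, Biopython 1.88, matplotlib 3.10.9 and BLAST+ 2.17.0 were used. Alternative pseudocounts, scalings, filters and lengths were tried. Splicing was not analysed here. Some sequences are not reported here.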

Additional observations from a re-analysis of the deposited data

How the results depend on the processing

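The log2 ratios of the 9 genes did not change direction or leave their counting intervals in any of 48 alternative values, with pseudocounts of 0.1 and 0.01, both scalings, recovered reads without a pseudocount (chosen after seeing the data) and, for the 3 genes whose copies had reads (*Rbm8a*, *Rnps1* and *Sap18*), copies added. The largest shift was 0.030. At the levels of these genes, a smaller pseudocount, a common scaling or the small share of reads in copies could hardly move a log2 ratio. Staying inside the intervals was thus largely fixed in advance, and it does not stand in for replicates. None of the 9 was past 1.5-fold under the pseudocounts, scalings or filters. The counts over all genes did move. Past 1.5-fold were 457 lower and 454 higher genes with a pseudocount of 0.1, 485 and 491 with 0.01, 468 and 511 without a filter, and 104 and 46 with a mean RPKM of at least 5, against 251 and 233. When the RPKM of each library was made to sum to 1000000, 356 lower and 434 higher genes were past 1.5-fold. More genes then passed the filter, 16133 in place of 14831, and their median was 0.042 in place of 0.015. The median of the nonsense-mediated decay factors became 0.11 and that of the export factors -0.036. Before this scaling, the summed RPKM of all genes had a log2 ratio of -0.028, which the scaling sets to 0. How far the additional genes account for the larger counts was not tested. After centring the median of all genes at 0, the medians of the ASAP and PSAP genes (-0.012) and the eIF4A paralogs (-0.013) changed sign, because centring takes 0.015 from every gene. With principal transcript lengths, the *Magohb* share was 12.2% in control and 14.8% in mutant testes. No paired analysis was possible because each genotype had 1 library. Depth limits *Magohb* most, whose 376 and 417 reads left an interval that includes 0.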

Other observations

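Export factors, which the exon junction complex helps to bring to spliced mRNA, lay on both sides of 0. Of 16 with an entry, 11 were lower and 5 higher in mutant testes (*Bcas2 F/-;Vasa-Cre*), with a median log2 ratio of -0.06 and none past 1.5-fold. Over all genes tested, 46.3% were lower and 3.26% were past 1.5-fold. The lowest was *Nxt1*, a cofactor of the export receptor, with 25.5 RPKM in control and 20.7 in mutant testes (527 and 415 reads, log2 ratio -0.29). The highest was *Thoc2*, a scaffold of the THO complex, with 145 and 166 RPKM (4808 and 5364 reads, log2 ratio 0.20). The paralogs of *Eif4a3* that act in translation initiation differed in sign. *Eif4a1* had 1241 RPKM in control and 1145 in mutant testes (log2 ratio -0.12), and *Eif4a2* had 448 and 487 (log2 ratio 0.12).

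Several of the 9 genes share exonic bases with a neighbour, and whether counting used strand is not given in the sources used here. *Acin1* shares 463 exonic bases with *1700123O20Rik* on the opposite strand, which had 681 reads in control and 635 in mutant testes. On the same opposite strand, *Acin1* also shares 75 with *4930579G18Rik* (168 and 210 reads) and 125 with *Gm17606* (3 and 2 reads). *Casc3* shares 494 with the antisense gene *Gm12359* (31 and 37 reads) and 15 with *Msl1* on the same strand (3127 and 3043 reads). *Sap18* shares 78 with *Ska3* on the opposite strand (435 and 436 reads). *Magohb* overlaps *Gm44958* on the same strand, which was not analysed here. The effect of these overlaps on the counts was not tested.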
